A study of Mus musculus with 12 samples.

Results

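Heat shock proteins and their co-chaperones were measured as 10 genes in 12 mouse pancreatic tumours, 6 grown in wild-type hosts and 6 in hosts that carry floxed Stat3 and an Alb-Cre transgene. The members were the table rows with the symbols Hspa1a, Hspa1b, Hspa8, Hsp90aa1, Hsp90ab1, Hspb1, Dnajb1, Hsph1, Hspd1 and Bag3, which are 10 of 24956 gene rows, and all 10 passed the filter on low counts. Hspa1a, Hspa1b, Hsp90aa1, Hspb1, Dnajb1, Hsph1 and Bag3 were treated as the inducible members, and Hspa8, Hsp90ab1 and Hspd1 as the constitutive ones. No member passed the quasi-likelihood test of edgeR after Benjamini-Hochberg adjustment over 12856 tested genes. The 3 members with the most negative estimates were Hspa1a, with a log2 fold change of -1.93 ± 0.51 (SE) in Alb-Cre Stat3f/f relative to wild-type hosts (adjusted p = 0.0717), Hspb1 with -1.23 ± 0.32 (adjusted p = 0.0571) and Hspa1b with -1.18 ± 0.39 (adjusted p = 0.134), n = 6 tumours per genotype. Hspa8, the constitutive HSP70, had an estimate of 0.02 ± 0.10.

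All tumours came from the line PDA.69, a pancreatic ductal adenocarcinoma line derived from KPC mice and labelled as low in T cells. The hosts were labelled WT or Alb-Cre+/+ STAT3f/f (written Alb-Cre Stat3f/f here). The Alb promoter drives Cre in hepatocytes, so the deletion lies in the host's liver and not in the implanted line, and the study asks how hepatocytes bear on the tumour. RNA was taken from formalin-fixed, paraffin-embedded tissue scraped from slides and counted from 3' tags with the QuantSeq kit. All 12 tumours share 1 tumour line, and the labels used here give no host age, treatment or time. Nor do they tie each tumour to a mouse of its own, so the p-values speak only to the spread among these 12 samples, which may be partly technical.

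Heat shock proteins are chaperones that bind unfolded or nascent proteins and help them fold, refold or be degraded. HSP70 proteins work with J-domain partners such as DNAJB1, which deliver substrates and stimulate ATP hydrolysis, and with nucleotide exchange factors such as HSPH1 and BAG3, which release ADP. HSP90 proteins act later on clients such as kinases and steroid receptors, small heat shock proteins such as HSPB1 hold unfolded proteins, and HSP60 (Hspd1) folds proteins in the mitochondrial matrix. Under protein-damaging stress the transcription factor HSF1 binds inverted repeats of the element nGAAn and induces part of this set, while HSPA8 and HSP90AB1 are abundant in unstressed cells.

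The libraries held 5691707 to 8085609 counts assigned to genes, and the members together took 0.2473% to 0.731% of them. Defining ductal markers such as Krt19 and Krt8 were present, and the summed level of 8 of 8 tested ductal markers was 2883 to 3381 CPM (counts scaled by TMM factors to a common library size) in wild-type hosts and 2135 to 2640 in Alb-Cre Stat3f/f hosts, without overlap, and Krt7 and Sox9 were called lower. Digestive enzyme genes of acinar cells, the exocrine cells of the normal pancreas, made up 0.526% to 38% of counts; their estimates were positive for 17 of 17 genes and 0 passed. Acinar counts exceeded 15% in wild-type tumour 5 and in Alb-Cre Stat3f/f tumours 1, 2, 3 and 4. Summed leukocyte markers were 398 to 730 CPM in wild-type hosts and 631 to 1156 in Alb-Cre Stat3f/f hosts, where 3 of 7 tested markers were called higher, and Cd79a was at 0 in every tumour. Stat3 itself, measured in tumour and not in liver, was 232 to 273 CPM in wild-type and 202 to 302 CPM in Alb-Cre Stat3f/f hosts, which does not check the deletion in hepatocytes. Over all genes, tumours of Alb-Cre Stat3f/f hosts had 287 calls higher and 96 lower. In bulk tumour RNA, fewer cells of a type and less RNA per cell cannot be told apart.

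Across the 12 tumours Hspa8 was above its inducible paralogs Hspa1a and Hspa1b, and Hsp90ab1 was above Hsp90aa1. Other genes of these families were not ranked here. The 3' tag counts do not scale with transcript length, so levels in CPM are compared between genes as tags. Median levels were 3579 CPM for Hsp90ab1, 603 for Hspa8, 255 for Hsp90aa1 and 107 for Hspd1. Hsp90ab1 was above Hspa8, Hspa8 above Hsp90aa1 and Hsp90aa1 above Hspd1 in 12 of 12 tumours, and Hspd1 was above Hsph1 in 11. Hsph1 (60.3 CPM) and Dnajb1 (59.6) were not ordered beyond their spread, as Hsph1 was the higher in 5 of 12 tumours. Hspa1b (33.1), Bag3 (29.4), Hspb1 (24.1) and Hspa1a (13.8) followed, and Hspa1b exceeded Bag3, and Bag3 exceeded Hspb1, in 8 of 12 tumours each.

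The members differed in how far they ranged from tumour to tumour, and Hspa1a, Hspa1b and Hspb1 had the largest SD of log2 CPM within either genotype (1.05, 0.89 and 0.72 in wild-type, 0.58, 0.41 and 0.40 in Alb-Cre Stat3f/f hosts). The highest tumour exceeded the lowest by 16.1-fold for Hspa1a, 5.94-fold for Hspa1b and 5.82-fold for Hspb1. For the other members this range was 2.94-fold for Dnajb1, 2.58-fold for Hsp90aa1, 2.52-fold for Hsph1, 2.21-fold for Hspd1, 1.54-fold for Bag3, 1.51-fold for Hsp90ab1 and 1.33-fold for Hspa8. Bag3, although counted here among the inducible members, thus had a range close to that of Hsp90ab1. For each member the highest of the 12 tumours was from a wild-type host: tumour 2 for 7 of 10 members, tumour 3 for Hspb1 and Bag3, and tumour 6 for Hsp90ab1. Wild-type tumours 2 and 3 were each among the top 3 for 9 members and wild-type tumour 1 for 6. Wild-type tumours 4, 5 and 6 had mean ranks of 6.8, 7.0 and 7.4 (rank 1 is the highest), within the 6.1 to 9.6 of the Alb-Cre Stat3f/f tumours.

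**Figure D1:**
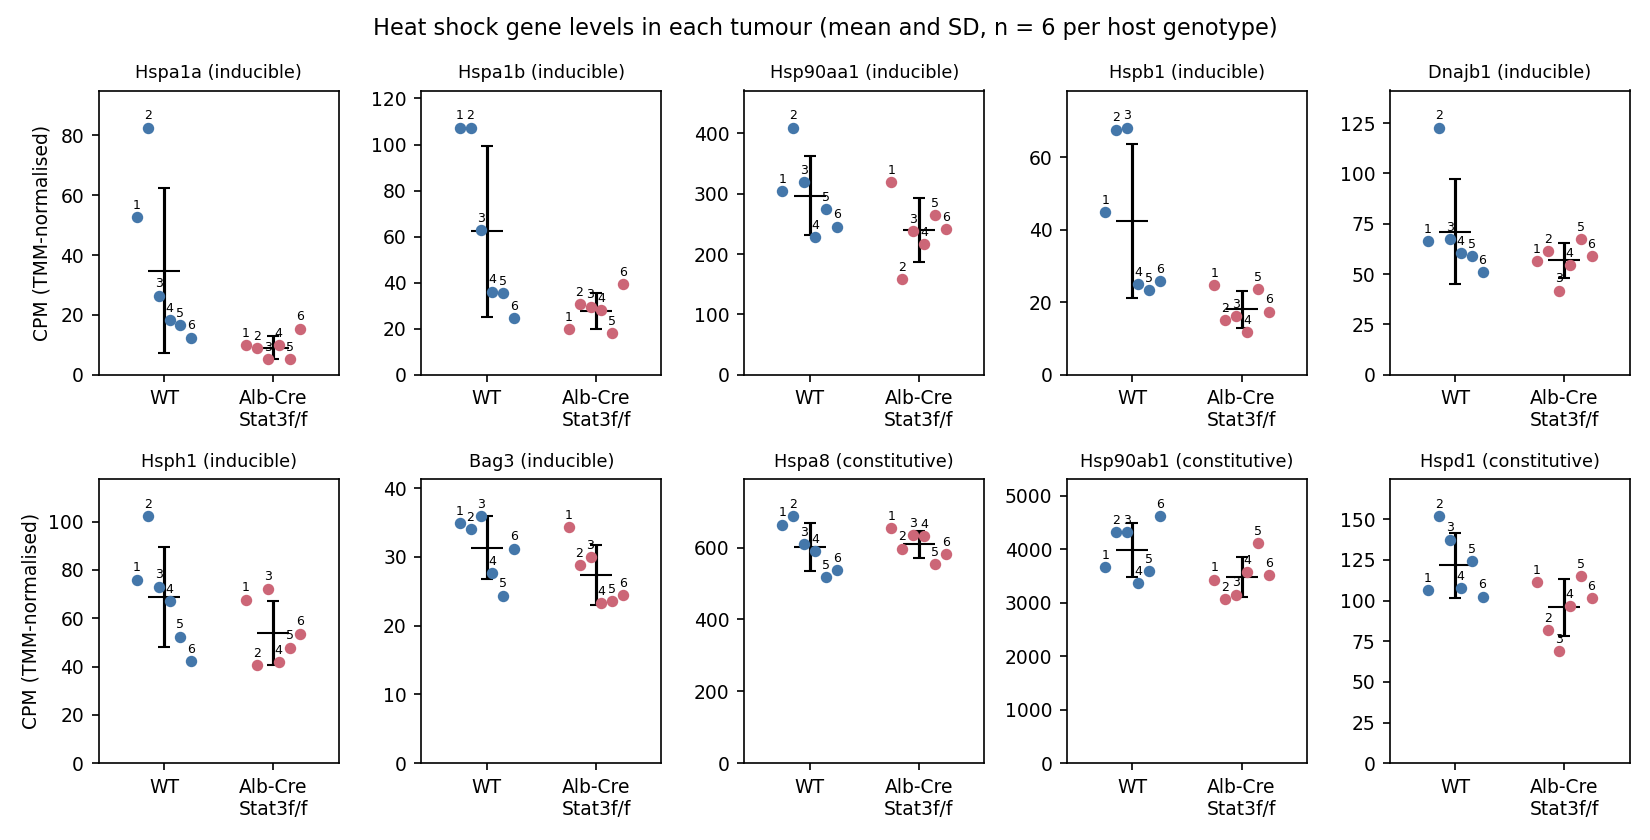
Level of each heat shock gene in each tumour, in CPM on a linear axis that starts at 0, with 1 panel per gene and 6 points per host genotype; the bars show the mean and SD. Hspa1a, Hspa1b and Hspb1 have wild-type values that reach 82.6, 107.4 and 68.2 CPM and values of at most 15.3, 39.4 and 24.7 CPM in Alb-Cre Stat3f/f hosts, whereas the 12 Hspa8 values lie between 518 and 688 CPM.

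Hspa1a and Hspa1b encode the stress-inducible HSP70 and were the members with the lowest and the fourth lowest median level. Hspa1a (ENSMUSG00000091971.3) lies on chr17:34969190-34972156 of GRCm38 on the minus strand, and Hspa1b on chr17:34956436-34959238 on the same strand, 9951 bases away. In wild-type hosts Hspa1a was 12.3 CPM at the lowest, 22.3 at the median and 82.6 at the highest; in Alb-Cre Stat3f/f hosts it was 5.14, 9.32 and 15.3. The wild-type tumours 1 to 6 held 52.7, 82.6, 26.5, 18.2, 16.5 and 12.3 CPM, and all but 1 of the 6 tumours from Alb-Cre Stat3f/f hosts lay below all of these. The sixth, Alb-Cre Stat3f/f tumour 6, overlapped the wild-type range at 15.3 CPM. The means were 34.8 ± 27.5 and 9.04 ± 3.75 CPM (SD, n = 6 each), and the 95% interval of the log2 fold change ran from -3.07 to -0.80. Raw counts of Hspa1a were 24 to 604 per tumour, so the lowest values rest on few counts.

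Hspa1b was 24.7, 49.4 and 107.4 CPM (lowest, median, highest) in wild-type hosts and 18.1, 28.8 and 39.4 in Alb-Cre Stat3f/f hosts. The groups overlapped, with 2 of 6 Alb-Cre Stat3f/f tumours below every wild-type tumour, and the interval of the log2 fold change was -2.04 to -0.31. The transcripts of the HSP70 pair share long stretches: 58.8% of the 50-base windows of the Hspa1a transcript also occur in Hspa1b. In the last 500 bases, where 3' tags fall, 0 of 451 windows were shared with Hspa1b or with any other member. The treatment of tags with several matches is not stated in the sources at hand.

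The regions just before the start sites are shown for the 3 members with the most negative estimates, since promoters of HSF1 targets are known to carry repeats of its element. The 160 bases before the RefSeq start sites (GRCm38.p6) lie at chr17:34972157-34972316 for Hspa1a, chr17:34959239-34959398 for Hspa1b, both minus strand, and chr5:135887759-135887918 for Hspb1, plus strand. They are written 5′ to 3′ in the direction of the gene, and capitals mark each match to GAANNTTC.
Hspa1a: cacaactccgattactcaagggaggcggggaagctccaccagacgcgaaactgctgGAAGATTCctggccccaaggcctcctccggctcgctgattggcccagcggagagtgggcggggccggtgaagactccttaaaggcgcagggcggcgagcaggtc
Hspa1b: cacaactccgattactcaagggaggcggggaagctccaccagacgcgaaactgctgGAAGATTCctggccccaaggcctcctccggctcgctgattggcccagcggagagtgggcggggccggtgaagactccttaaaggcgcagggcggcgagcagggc
Hspb1: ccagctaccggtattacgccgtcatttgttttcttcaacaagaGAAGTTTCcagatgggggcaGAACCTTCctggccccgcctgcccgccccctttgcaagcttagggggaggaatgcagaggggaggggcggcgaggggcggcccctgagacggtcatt
The Hspa1a and Hspa1b stretches differ at 1 of 160 bases, and both hold the match GAAGATTC beginning 104 bases before the start site. Hspb1 holds matches beginning 117 and 97 bases before it.

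RefSeq windows from 250 bases before to 50 after the start were found for 7 of 10 members, some with a second start, and 72 of 87 other chaperone genes. Both strands are covered by each motif searched, since GAANNTTC and TTCNNGAA are their own reverse complements, and GAANNTTCNNGAA was searched with TTCNNGAANNTTC. GAANNTTC occurred in 6 of 7 member genes, against 9.04% of 27025 genes and 11 of 72 other chaperone genes, and in 7 of 10 member windows, against 7.86% of 32851 windows of this length. TTCNNGAA occurred in 2 of 7 member genes (9.6% of genes), and the longer GAANNTTCNNGAA, which contains the shorter motifs, in 2 of 7 (0.662% of genes); each was in 3 of 10 member windows (8.52% and 0.603% of windows). The longer matches were in Hspd1, as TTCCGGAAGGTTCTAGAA at chr1:55088059-55088076, minus strand, and in Hsph1, as TTCTGGAAAGTTC at chr5:149636288-149636300, minus strand, which are printed because they are the longest matches among the members. The Hspd1 match began 144 bases before the start site in 1 of 2 windows, and the other Hspd1 window held no match. The match lies inside the annotated span of the gene, chr1:55077835-55088243, and so not before its outermost start. The Hsph1 match began after the start site in both windows, by 15 and 36 bases. The Bag3 match to GAANNTTC began 42 bases after the start site. No match was found in either Dnajb1 window. Hspa1a and Hspa1b hold the same match in near-identical sequence, and the 2 Hsph1 windows overlap, so the counts are not of independent sites. Matches to letters are a description and not a measurement of HSF1 binding.

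Hspb1, the small heat shock protein HSP27 (HSP25 in mouse), had the smallest adjusted p among the members. It lies on chr5:135887919-135889563, plus strand. Its levels in wild-type hosts were 23.2, 35.3 and 68.2 CPM (lowest, median, highest), with wild-type tumours 1, 2 and 3 at 44.8, 67.6 and 68.2 CPM. In Alb-Cre Stat3f/f hosts they were 11.7, 16.7 and 24.7, and 4 of 6 tumours lay below every wild-type tumour. The means were 42.4 ± 21.2 and 18.1 ± 5.07 CPM (SD, n = 6 each), and the interval of the log2 fold change was -1.92 to -0.54. Of the windows in its last 500 bases, 16.0% also occur in the annotated pseudogene Hsp25-ps1. Leaving out wild-type tumour 4 or 5 or Alb-Cre Stat3f/f tumour 5 gave log2 fold changes of -1.35, -1.35 and -1.33 and adjusted p values in edgeR's quasi-likelihood test of 0.0427, 0.0261 and 0.048. Leaving out any other tumour gave an edgeR adjusted p of 0.0518 to 0.126.

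Read over all 10 members, 0 were called lower by edgeR's quasi-likelihood test, where 0.747% of all tested genes were, and 0 were called higher, where 2.23% were. At an unadjusted p under 0.05, 4 of 10 were lower (Hspa1a, Hspa1b, Hspb1 and Hspd1) against 7.83% of all genes, and 0 were higher against 11.5%. DESeq2's Wald test called 3 of 10 lower against 2.33% of genes: Hspa1a (adjusted p = 0.00369), Hspa1b (0.0366) and Hspb1 (0.000511). The estimate was negative for 9 of 10 members, against 50.0% of genes, and the median log2 fold change was -0.33 for the members and -0.00077 for all tested genes. Without wild-type tumour 2 the members' median was -0.20, and Hsp90aa1 and Hsph1 had -0.20 and -0.21. For 0 of 10 members did every Alb-Cre Stat3f/f tumour lie below every wild-type tumour, which held for 0.646% of genes. The members were chosen with earlier results of these data known and are not independent genes, so these shares are a description.

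**Figure D2:**
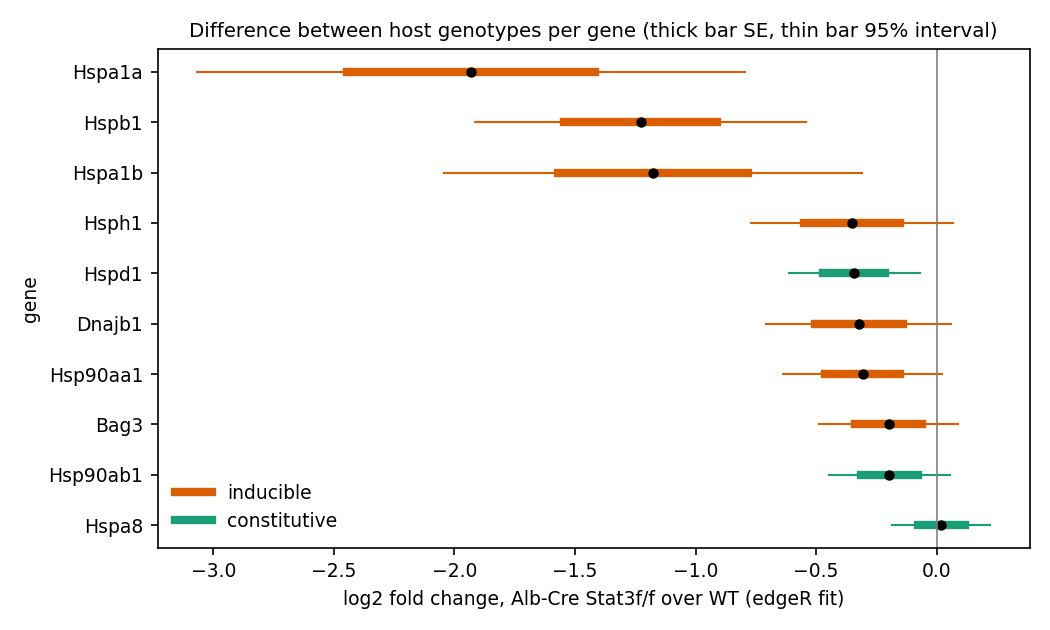
Log2 fold change of each member in Alb-Cre Stat3f/f over wild-type hosts from the edgeR fit, with the SE as a thick bar and the 95% interval as a thin bar. Hspa1a, Hspb1 and Hspa1b lie at -1.93, -1.23 and -1.18, Hspa8 lies at 0.02, and the other members lie between -0.35 and -0.20.

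The HSP90 pair had smaller estimates, and neither gene passed the test. Hsp90ab1, the constitutive cytosolic HSP90 (chr17:45567775-45573271, minus strand), was 3359, 3989 and 4618 CPM (lowest, median, highest) in wild-type hosts and 3060, 3469 and 4113 in Alb-Cre Stat3f/f hosts, a log2 fold change of -0.20 ± 0.12 (edgeR adjusted p = 0.388). Hsp90aa1, the stress-responsive form (chr12:110690605-110702728, minus strand), was 228, 290 and 410 CPM in wild-type hosts and 159, 240 and 319 in Alb-Cre Stat3f/f hosts, a log2 fold change of -0.31 ± 0.16 (edgeR adjusted p = 0.291). The groups overlapped for both genes, with 2 of 6 Alb-Cre Stat3f/f tumours below every wild-type tumour. Their intervals, -0.45 to 0.05 and -0.64 to 0.02, include 0.

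Among the HSP70 partners, Dnajb1, the J-domain protein of the heat shock response (chr8:83608193-83612653, plus strand), was 50.9, 63.3 and 122.8 CPM in wild-type hosts and 41.8, 57.7 and 67.4 in Alb-Cre Stat3f/f hosts. Wild-type tumour 2 stood apart from the other wild-type tumours for this gene, and the log2 fold change of -0.32 ± 0.18 (edgeR adjusted p = 0.349) became -0.10 without it. Hsph1, the HSP110 exchange factor (chr5:149614287-149636376, minus strand), was 42.1, 70.0 and 102.3 CPM in wild-type hosts and 40.7, 50.7 and 72.2 in Alb-Cre Stat3f/f hosts, a log2 fold change of -0.35 ± 0.20 (edgeR adjusted p = 0.351). Bag3, which links HSP70 and small heat shock proteins to autophagy (chr7:128523616-128546981, plus strand), was 24.4, 32.6 and 35.9 CPM in wild-type hosts and 23.3, 26.6 and 34.3 in Alb-Cre Stat3f/f hosts, a log2 fold change of -0.20 ± 0.14 (edgeR adjusted p = 0.454). The groups overlapped for all 3 genes.

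Hspa8 (chr9:40800984-40810087, plus strand) had the narrowest range of the members: it was 518, 600 and 688 CPM in wild-type hosts and 553, 615 and 654 in Alb-Cre Stat3f/f hosts. The interval of its log2 fold change was -0.18 to 0.22 (edgeR adjusted p = 0.942), and none of the Alb-Cre Stat3f/f tumours lay below the wild-type range. Of the windows in its last 500 bases, 81.8% also occur in other annotated genes, 11 in number, so its counts are uncertain by how multiple matches were treated. Hspd1, the mitochondrial HSP60 (chr1:55077835-55088243, minus strand), was 102, 116 and 152 CPM in wild-type hosts and 68.8, 98.9 and 115 in Alb-Cre Stat3f/f hosts, with 4 of 6 tumours below every wild-type tumour, a log2 fold change of -0.34 ± 0.13 (edgeR adjusted p = 0.150). Its partner Hspe1, the HSP10 co-chaperonin encoded next to it on the opposite strand, had 115 ± 20.6 CPM in wild-type hosts and 110 ± 11.8 in Alb-Cre Stat3f/f hosts (SD, n = 6 each).

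The inducible members were then set against the constitutive ones within each tumour, as the mean log2 CPM of the 7 inducible genes minus that of the 3 constitutive genes. In wild-type tumours 1 to 6 this difference was -3.08, -2.93, -3.39, -3.70, -3.82 and -4.02, and in Alb-Cre Stat3f/f tumours 1 to 6 it was -3.92, -3.98, -3.91, -4.20, -4.25 and -3.84. Wild-type tumours 1, 2 and 3 were the highest. Wild-type tumours 4 and 5 lay just above the highest Alb-Cre Stat3f/f value of -3.84, and wild-type tumour 6 lay within the range of that genotype. The means were -3.49 ± 0.43 and -4.01 ± 0.17 (SD, n = 6 each), 0.52 lower in Alb-Cre Stat3f/f hosts, and no test was made of a score over the members. The inducible mean was 5.87 ± 0.54 in wild-type and 5.18 ± 0.16 in Alb-Cre Stat3f/f hosts on the log2 CPM scale, and the constitutive mean was 9.36 ± 0.14 and 9.19 ± 0.13.

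Paralog ratios within a tumour were compared for 3 pairs. The HSP70 pairs, both over Hspa8, differed between genotypes, and the HSP90 pair did not beyond its spread. Hspa1a was 7.98%, 12%, 4.39%, 3.14%, 3.24% and 2.35% of Hspa8 in wild-type tumours 1 to 6, and 1.55%, 1.54%, 0.855%, 1.59%, 1.00% and 2.69% in Alb-Cre Stat3f/f tumours 1 to 6. All but Alb-Cre Stat3f/f tumour 6 lay below the wild-type range, and the log2 ratio averaged -4.43 ± 0.90 in wild-type and -6.12 ± 0.58 in Alb-Cre Stat3f/f hosts (SD, n = 6 each; exact two-sided permutation test over 924 relabellings, p = 0.00433, adjusted p = 0.013). The Hspa1b to Hspa8 log2 ratio was -3.48 ± 0.74 in wild-type and -4.49 ± 0.42 in Alb-Cre Stat3f/f hosts, with 3 of 6 tumours below the wild-type range (exact permutation p = 0.0216, adjusted p = 0.0325). The Hsp90aa1 to Hsp90ab1 log2 ratio was -3.76 ± 0.28 and -3.88 ± 0.29, a difference within the spread between tumours (exact permutation p = 0.47). This adjustment covers the 3 pairs and not the genes of the table, and the pairs were chosen with earlier results of these data known. Because Hspa8 differed little between tumours, the Hspa1a ratio carries nearly the same difference as the Hspa1a level, which missed the threshold over all genes. The percentages of Hspa8 are ratios of tags. They are uncertain by how multiple matches were treated, since 81.8% of the Hspa8 end windows also occur in other genes.

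Among the 7 tumours with at most 15% acinar counts, 5 from wild-type and 2 from Alb-Cre Stat3f/f hosts, the difference in log2 ratio between Alb-Cre Stat3f/f and wild-type hosts was -1.61 for Hspa1a to Hspa8 and -0.99 for Hspa1b to Hspa8, with an adjusted exact permutation p of 0.429 each, where 21 relabellings allow no unadjusted p below 0.048. For Hspa1b to Hspa8, leaving out Alb-Cre Stat3f/f tumour 1, 3, 4 or 5 gave adjusted exact permutation p values of 0.0714, 0.0552, 0.0617 and 0.0714.

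**Figure D3:**
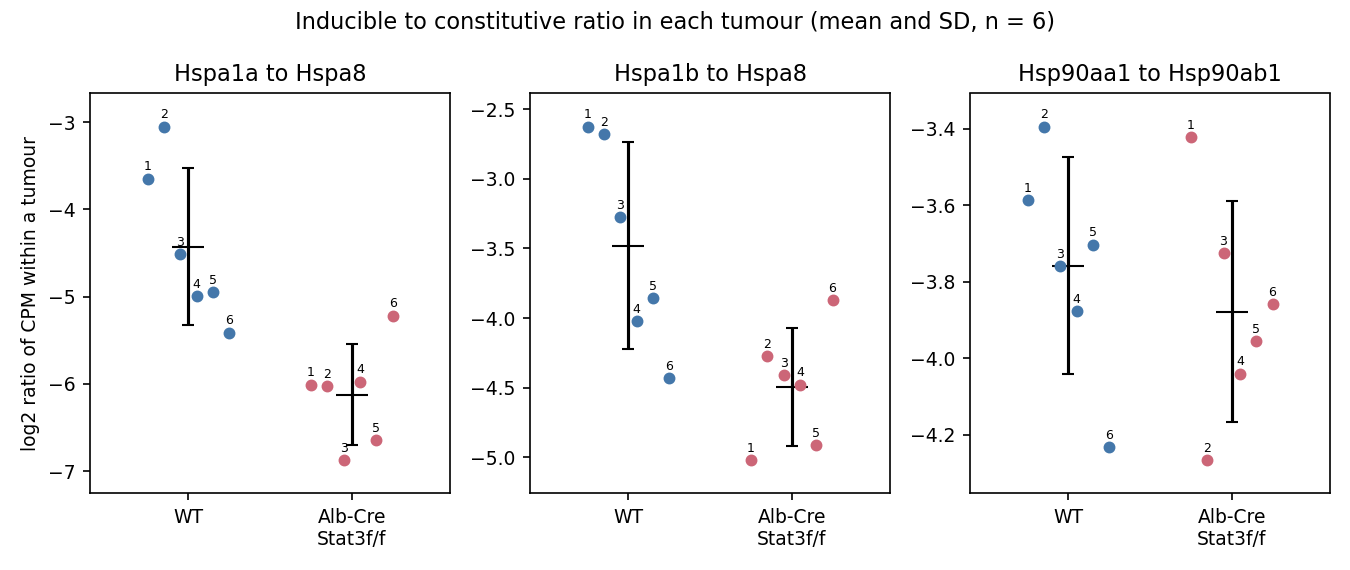
Log2 ratio of CPM of an inducible to a constitutive family member within each tumour, with 6 points per host genotype and bars for the mean and SD. The Hspa1a to Hspa8 ratio averages -4.43 in wild-type and -6.12 in Alb-Cre Stat3f/f hosts, and the Hsp90aa1 to Hsp90ab1 ratio -3.76 and -3.88.

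Other gene lists also differed between the tumours. The summed level of 8 hypoxia and glycolysis genes was 1472, 1350, 1065, 794, 1256 and 735 CPM in wild-type tumours 1 to 6 and 631 to 884 in Alb-Cre Stat3f/f hosts, with 8 of 8 genes at negative estimates and Vegfa and Adm called lower. The summed immediate early genes, which respond to handling of tissue among other stimuli, were 450 to 794 CPM in wild-type and 393 to 601 in Alb-Cre Stat3f/f hosts, with 7 of 8 negative and Egr1 called lower. Ductal markers were lower and leukocyte markers mostly higher in Alb-Cre Stat3f/f hosts, as given above. With the acinar score as a covariate the log2 fold changes were -2.12 ± 0.63 for Hspa1a, -1.42 for Hspa1b and -1.14 for Hspb1, and without the 5 tumours over 15% acinar counts they were -1.89 ± 1.00, -1.23 and -1.17 ± 0.51. In these fits edgeR's adjusted p was 0.176 and 0.604 for Hspa1a and 0.207 and 0.49 for Hspb1. The part of hypoxia, handling, tumour cell content and leukocytes in the heat shock gene levels was not tested.

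Most pairs of members correlated positively across the 12 tumours. Of 45 pairs, 44 had a positive Pearson correlation of log2 CPM, against 49.9% of the 82631940 pairs of tested genes, and the median r was 0.586 against -0.0015. By a permutation test of r adjusted over the 45 pairs, 14 passed, of which 10 were among the 21 pairs of inducible members, 3 among the 21 mixed pairs and 1 among the 3 constitutive pairs. The lowest r of these 14 was 0.687, a value that 2.23% of all gene pairs reached. The permutation ignored genotype, so r and its p mix differences between genotypes with variation within them. By Spearman's rho 0 of 45 passed after adjustment, and the smallest adjusted permutation p was 0.0587. The count of 14 rests on the wild-type tumours with the highest levels: it was 8 without wild-type tumour 1, 1 without tumour 2 and 3 without tumour 3.

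Hspa1a and Hspa1b correlated at r = 0.923 (permutation p = 8e-05, adjusted p = 0.0036) and rho = 0.825 (permutation p = 0.00177, adjusted p = 0.0587). This r was 0.967 within wild-type hosts, 0.554 within Alb-Cre Stat3f/f hosts and 0.774 without wild-type tumours 1 and 2, the farthest from the median. Hsp90aa1 and Hspb1 correlated at r = 0.805 (adjusted permutation p = 0.0216; rho 0.755, adjusted p = 0.0681), with 0.862 and 0.712 within the genotypes and 0.777 without the 2 farthest tumours. The paralogs Hsp90aa1 and Hsp90ab1 had r = 0.586 (adjusted permutation p = 0.0877; rho 0.594, adjusted p = 0.113), and r was 0.255 without the 2 farthest tumours. Hspa1a and Hspa8 had r = 0.424 (adjusted permutation p = 0.232; rho 0.252, adjusted p = 0.508) over the 12 tumours, 0.933 within wild-type hosts, 0.0879 within Alb-Cre Stat3f/f hosts and -0.195 without wild-type tumours 1 and 2. Within wild-type hosts the median r of the 45 pairs was 0.747 with 44 positive, and within Alb-Cre Stat3f/f hosts -0.0522 with 22 positive, where all gene pairs had medians of -0.001 and -0.0015. The difference between genotypes was not tested. Both genes of a pair come from the same library and share its depth and scaling.

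**Figure D4:**
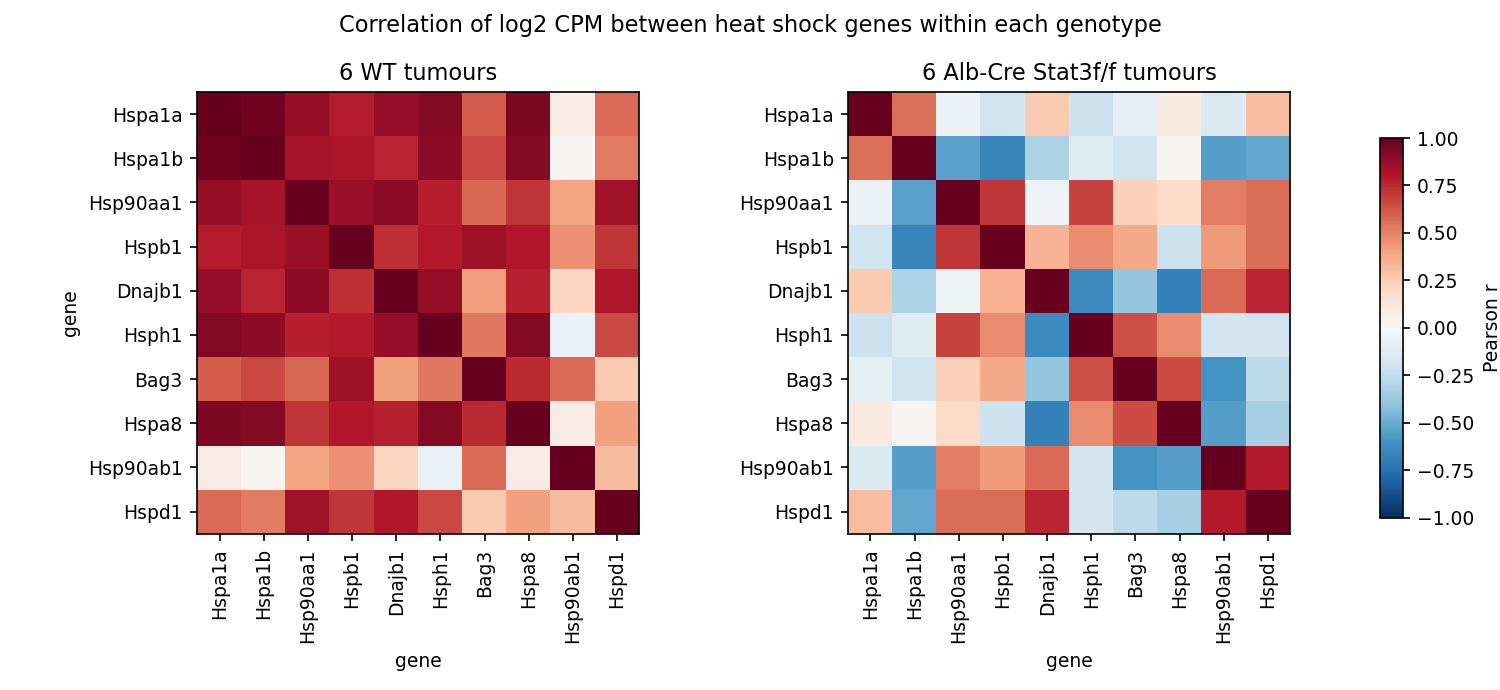
Pearson r of log2 CPM for each pair of members over the 6 tumours of wild-type hosts and, beside it, the 6 tumours of Alb-Cre Stat3f/f hosts, with the colour scale from -1 to 1 and the diagonal at 1. The median of the 45 pairs is 0.747 in wild-type hosts, where Hsp90ab1 stands apart from the other members, and -0.0522 in Alb-Cre Stat3f/f hosts.

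Genes whose level over the 12 tumours was most like that of 3 members were listed by Pearson r of log2 CPM, as a description. For Hspa1a they were Hspa1b (0.923), Bnip3 (0.886), Trp53i11 (0.886), Bnip3l (0.881) and Sra1 (0.880). Bnip3 and Bnip3l encode mitochondrial receptors of mitophagy, and Bnip3 is also one of the hypoxia genes summed above. For Dnajb1 they were Trib1 (0.922), Arrb1 (0.919), Elmod3 (0.917), Cdc16 (0.904) and Mtch2 (0.903). For Hsp90ab1 they were Kat6a (0.949), Pdap1 (0.934), Pnisr (0.927), Snrpb2 (0.923) and Epc2 (0.919), none of them a chaperone.

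The rest of the chaperone system was read from 9 lists of 87 genes, of which 82 were tested. Of these, 2 rose, 0 fell and 80 did not pass in edgeR's quasi-likelihood test, where 2.23% of all tested genes rose and 0.747% fell. The 2 of 82 that rose are thus near the share over all genes. Negative estimates were found for 41 of 82, with a median log2 fold change of -0.0011. At an unadjusted p under 0.05 there were 8 lower and 6 higher, against 7.83% and 11.5% of all genes. The estimates of the wider system were thus balanced in sign, whereas 9 of the 10 members were negative. The members and lists were chosen with earlier results of these data known, and members are not independent, so the contrast is a description.

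HSP90 co-chaperones held 1 of the genes that rose. Fkbp5, an immunophilin that binds HSP90 in steroid receptor complexes and is induced by glucocorticoids, was 50.4, 63.0 and 85.9 CPM (lowest, median, highest) in wild-type hosts and 87.5, 115.6 and 152.0 in Alb-Cre Stat3f/f hosts, without overlap. The share of all genes with every Alb-Cre Stat3f/f tumour above every wild-type tumour was not counted. The log2 fold change of Fkbp5 was 0.88 ± 0.15 (edgeR adjusted p = 0.00369), and it was 0.62 with an adjusted p of 0.112 without the 5 tumours over 15% acinar counts. The other 15 co-chaperones did not pass, and the median of the list was 0.06.

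Small heat shock proteins other than Hspb1 held the other gene that rose. Hspb8, which works with BAG3 in chaperone-assisted autophagy, was 12.2, 16.4 and 24.0 CPM in wild-type hosts and 22.7, 32.6 and 49.3 in Alb-Cre Stat3f/f hosts, with 5 of 6 tumours above every wild-type tumour. Its log2 fold change was 0.95 ± 0.19 (edgeR adjusted p = 0.0113), opposite in sign to the -1.23 of Hspb1. It was 0.67 (edgeR adjusted p = 0.0557) with the acinar score as a covariate and 0.63 (edgeR adjusted p = 0.256) without the 5 tumours over 15% acinar counts. Of 8 genes on this list 6 were tested, and Cryaa and Hspb3 were left out with 15 and 9 counts over all tumours.

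Heat shock factors and their direct regulators did not pass, 0 of 6 tested, with a median log2 fold change of -0.09. Hsf1, the main regulator of the heat shock response, was 8.48, 12.98 and 18.2 CPM in wild-type hosts and 14.2, 16.2 and 21.3 in Alb-Cre Stat3f/f hosts, a log2 fold change of 0.37 ± 0.21 (edgeR adjusted p = 0.362). Its estimate was positive and those of Hspa1a, Hspa1b and Hspb1 were negative, and a relation of Hsf1 level to these genes was not tested. Hspbp1, an HSP70 exchange factor, had the next smallest p, with a log2 fold change of 0.22 (edgeR adjusted p = 0.546).

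The remaining lists had no gene past the threshold. The median log2 fold change was -0.19 over 8 tested genes of the other HSP70 and HSP110 family, where Hspa2 and Hspa14 had -0.52 and -0.23. It was -0.19 over 8 HSP70 exchange factors and adaptors, where St13 had -0.27 and Bag5 -0.41, and 0.04 over 16 other J-domain proteins, where Dnajc3 of the endoplasmic reticulum had 0.79 ± 0.28 and Dnajc5 -0.26. It was 0.10 over 8 mitochondrial chaperones and proteases, where the protease subunits Clpp and Clpx had -0.33 and 0.37. It was -0.05 over 8 subunits of the chaperonin TRiC, where Cct4 had 0.22 and Tcp1 -0.25, and -0.03 over 6 prefoldin subunits, where Pfdn1 had -0.28 and Pfdn6 0.22. The smallest edgeR adjusted p among these 12 named genes was 0.149, for Dnajc3.

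**Figure D5:**
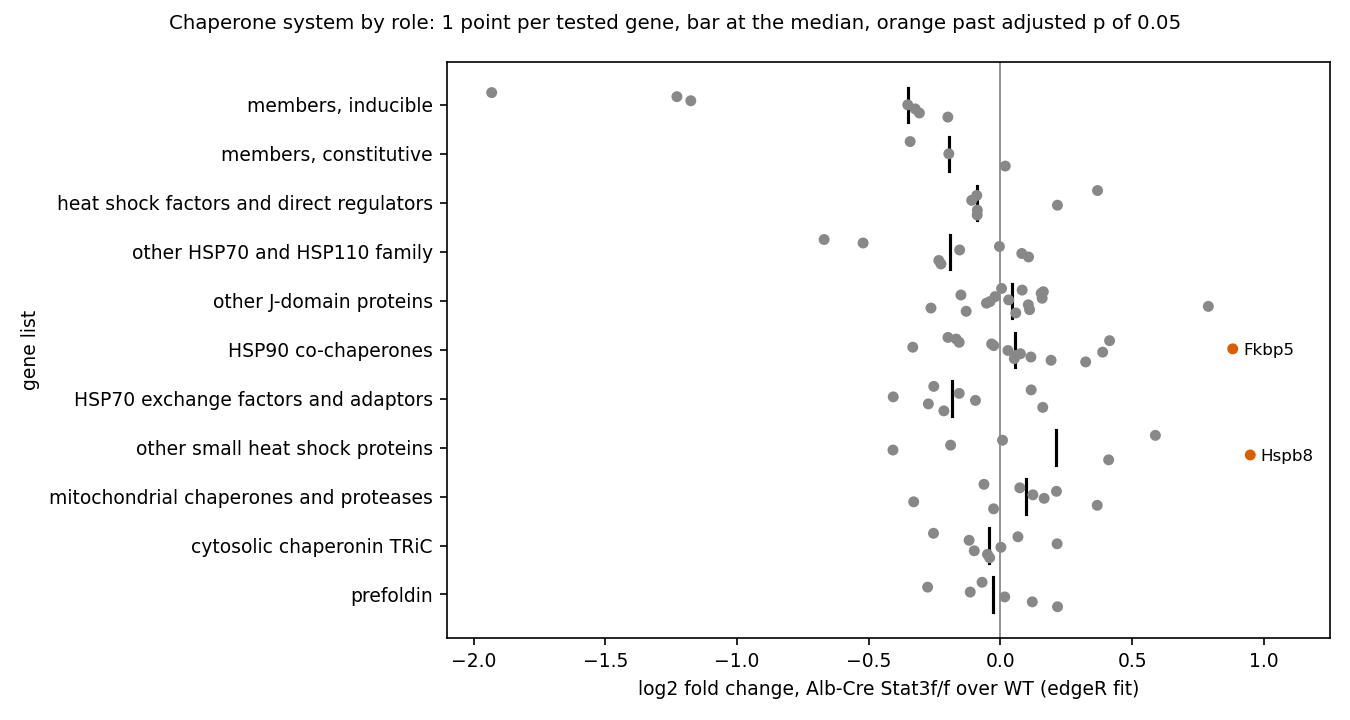
Log2 fold change between host genotypes for each tested gene of the chaperone system, 1 row per list with a bar at its median; orange points passed edgeR's test at an adjusted p of 0.05. Fkbp5 and Hspb8 are the genes that passed, at 0.88 and 0.95, and the most negative points are the inducible members Hspa1a, Hspb1 and Hspa1b.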

How the data were processed

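3' tag counts per gene were deposited by the authors for 12 tumours in 1 table; reads were aligned with STAR to mm10, per the submitters' processing notes, and the versions, the counting tool, its annotation, its treatment of strand and of multiple matches are not given in the sources here. Of 24982 rows, 26 carried a date in place of a gene name (0.069% to 0.166% of a tumour's counts) and were left out. Genes were kept by edgeR's filterByExpr (minimum count 10, total 15), which left 12856 genes, and fitted with TMM scaling and edgeR 4.0.16's robust quasi-likelihood test in R 4.3.3, over all 12 tumours without covariates, with Benjamini-Hochberg adjustment and a threshold of 0.05. CPM and log2 CPM (prior count 2) use the same scaling, errors are SDs unless named SE, and intervals are at 95%. Depth was 5691707 to 8085609 counts per tumour, and the biological coefficient of variation was 0.25. No pair of tumours of a genotype agreed within sampling noise (smallest chi-square per gene 11.8). The test was tried on simulated counts.

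The host genotype was taken from the labels. Shared replicate numbers did not pair tumours, so no block entered the fit. Ratios of 3 paralog pairs used exact permutation over tumours, and 45 correlations 100000 permutations each. Alternatives were DESeq2 1.42.0 (its size factors and its Wald test), no filter or at least 10 CPM in 6 tumours, other prior counts (0.5 and 5), each tumour left out, a replicate block, the acinar score as a covariate, leaving out tumours over 15% acinar counts, and leaving out acinar genes with Rn45s. Start-site windows are from RefSeq on GRCm38.p6, gene positions from GENCODE for GRCm38. The members and lists were chosen with earlier results of these data known. All members are named; of each pathway list, the genes past the threshold or otherwise the 2 with the smallest p; for Hspa1a, Dnajb1 and Hsp90ab1 the 5 genes with the highest r; of the marker lists the first 2 and any at 0 in every tumour; others named were chosen after their values were seen. Fibroblast markers summed to 1683 to 2698 CPM in wild-type and 1703 to 2824 in Alb-Cre Stat3f/f hosts (1 called higher, Dcn), endothelial markers to 52.3 to 92.5 and 47.0 to 124, and skeletal muscle markers to 0.237 to 1.31 and 0.300 to 1.41. Each sample description opens with a number of unknown meaning; the numbers of the genotypes do not overlap, so whatever order they mark cannot be told apart from genotype.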

Additional observations from a re-analysis of the deposited data

Results flagged for a closer look

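Dnajb1 in wild-type tumour 2 was 123 CPM, which stood apart from the other 5 tumours of its genotype by Dixon's criterion. It was 1 of 28 groups of 6 tumours looked at, and chance alone marks about 1 in 20. The same tumour was the highest of the 12 for 7 of the 10 heat shock genes.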

How the results depend on the processing

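The direction held in all 20 alternatives for each of the 10 members except Hspa8. Its log2 fold change of 0.02 became -0.026 with the acinar covariate and -0.12 without the tumours over 15% acinar counts, and ran from -0.021 to 0.059 with 1 tumour left out (-0.021 without wild-type tumour 5, -0.018 without tumour 6, -0.0036 without Alb-Cre Stat3f/f tumour 1); the cause was not tested. DESeq2's Wald test called 3 members lower, with log2 fold changes of -1.94 for Hspa1a, -1.18 for Hspa1b and -1.24 for Hspb1. With 1 tumour left out, 0 to 1 members were called lower, Hspb1 ran from -1.35 to -1.04 and Hspa1a from -2.17 to -1.47. All genes gave 618 calls higher and 288 lower with DESeq2, 139 and 38 with the acinar covariate, 83 and 14 without the tumours over 15% acinar counts (fewer samples), and 141 to 471 and 37 to 222 with 1 tumour left out. Of the other chaperone genes, 1 rose with the acinar covariate and 0 without the acinar-rich tumours, where Fkbp5 had 0.62 and Hspb8 0.63; DESeq2 called 1 lower (Fkbp4), and leaving out 1 tumour 0 to 1. Correlated pairs of members numbered 1 to 21 with 1 tumour left out, and r of Hspa8 and Hsp90ab1, -0.152, ran from -0.399 to 0.0835 with 1 left out, the highest without wild-type tumour 6. The log2 difference in the Hspa1a to Hspa8 ratio was -1.61 and in the Hspa1b to Hspa8 ratio -0.99 without the acinar-rich tumours, and the latter ran from -1.20 to -0.84 with 1 tumour left out. Same-numbered tumours did not deviate together: 2 of 6 correlations exceeded 0.1 and 0 of 6 tumours correlated best with its own number. With a replicate block there were 145 calls higher and 44 lower, Hspa1a had -1.70 (edgeR adjusted p = 0.150) and Hspb1 -1.11 (0.0909), and the ratio differences of -1.70 and -1.01 had an adjusted exact p of 0.141 each, where 64 sign flips allow no unadjusted p below 0.031. Ratios and correlations were not run under DESeq2's Wald test, nor correlations under the block or the acinar covariate. Over all results, 673 of 739 values stayed within the main call or spread. A fold change that kept its sign and missed the threshold in both fits counted as such, whatever its p. This share is therefore no measure of stability. At 24 to 604 counts a tumour, depth limits Hspa1a the most.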

Other observations

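Of the HSP90 immunophilins, Fkbp5 alone passed the test among Fkbp4, Fkbp5 and Ppid. Fkbp4, the FKBP52 partner of steroid receptors, had 170 ± 5.49 CPM in wild-type and 135 ± 19.9 CPM in Alb-Cre Stat3f/f hosts (SD, n = 6 each). For this gene 6 of 6 Alb-Cre Stat3f/f tumours lay below every wild-type tumour, which held for 0.646% of tested genes. Fkbp4 did not pass edgeR's quasi-likelihood test over all genes (log2 fold change -0.33 ± 0.10, adjusted p = 0.0743). Its adjusted p in this test was 0.0343 to 0.14 with 1 tumour left out, 0.236 with the acinar covariate and 0.575 without the tumours over 15% acinar counts. Fkbp5 rose, as given above. Ppid, the cyclophilin on the same list, had a log2 fold change of 0.03 ± 0.12 (edgeR adjusted p = 0.927). Cryab, a small heat shock protein, had 13.2 ± 4.29 and 20.04 ± 3.88 CPM, a log2 fold change of 0.59 ± 0.20 (edgeR adjusted p = 0.105). It passed without wild-type tumour 1 (0.78, edgeR adjusted p = 0.0306), but with any other tumour left out its edgeR adjusted p was 0.0844 to 0.227. With the acinar covariate Cryab had 0.50 (edgeR adjusted p = 0.339), and without the tumours over 15% acinar counts 0.30 (edgeR adjusted p = 0.772). Fkbp4, Ppid and Cryab were singled out after their values were seen.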
